A study of Mus musculus with 6 samples.

Results

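The mitochondrial ribosomal protein genes described here are the protein-coding genes whose symbols start with Mrpl, for the large subunit, or Mrps, for the small subunit, followed by a digit. The mouse annotation holds 78 such genes. Of these, 77 matched an identifier among the 38887 in the deposited table, 48 of the large subunit and 29 of the small subunit, while Mrpl33 had no matching identifier. After genes with few counts had been set aside, 12259 genes were tested, and 75 of the members were among them, 47 large and 28 small. The rule uses names and no measured value, but it was set with earlier results of these data known. The RNA was total RNA of bone marrow neutrophils, taken with anti-Ly6G beads. The 3 groups were naive mice, without tumor or other treatment in the labels, and mice at 1 week or 3 weeks of LL2 tumor growth. LL2 is a mouse Lewis lung carcinoma line, given here with a luciferase gene into the blood so that tumors formed in the lung. Each of the 3 groups had 2 libraries, numbered as replicate mice, and the labels give neither strain nor age. The study's text gives another number of samples per group than the labels, which were followed here. The same 2 naive libraries served both comparisons with tumor-bearing mice.

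Mitochondria carry their own ribosome, the mitoribosome, which makes the few respiratory chain and ATP synthase subunits encoded in mitochondrial DNA. Its RNA comes from that DNA, but its proteins are encoded in the nucleus, made in the cytosol and imported. The small subunit binds the messenger RNA and decodes it, and the large subunit joins the amino acids and anchors the ribosome to the inner membrane. Some of the proteins descend from bacterial ribosomal proteins and others were added in mitochondria. Mature neutrophils are known for few mitochondria and for a reliance on glycolysis.

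The libraries held between 11994158 and 14127919 counts, and 3 counts corresponded to between 0.2 and 0.246 CPM, which are counts per library size scaled by TMM factors. These limits cover counting error only. The 10 neutrophil markers summed to between 277200 and 338100 CPM in each library, most of it S100a8 and S100a9, whereas Ly6g, the marker of the beads, had 6 to 32 counts. Between replicate libraries, the members' counts varied 2.17 to 3.21 times as much as counting noise alone would give (chi-square per degree of freedom). This measure used library totals without TMM factors, and over all genes tested it was 8.84 to 11.8. A p-value here sets a difference between groups against the spread between replicate libraries, estimated over all 6 libraries together. In such bulk RNA, fewer cells of a type and less RNA per cell cannot be told apart.

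Within naive neutrophils the members were spread over a wide range of levels. Compared per length, as CPM per kb of annotated exon, the median was 4.15 for the large subunit and 1.96 for the small subunit, beside 2.41 for all protein-coding genes tested. Mrpl53 was the highest large-subunit gene, at 72.0 and 74.3 CPM per kb in the 2 naive libraries, followed by Mrpl18 at 35.9 and 34.6 and Mrpl14 at 30.8 and 34.2. Mrps21 led the small subunit at 67.0 and 69.3 CPM per kb, ahead of Mrps23 at 19.6 and 22.7 and Mrps26 at 16.4 and 18.5. The lowest tested members were Mrpl47, with a mean of 0.282 CPM per kb, Mrpl13 with 0.613 and Mrpl1 with 0.695, and on the small side Mrps31 with 0.257, Mrps22 with 0.435 and Mrps5 with 0.715. Mrps21 and Mrpl53 thus stood far above the medians of their subunits. The length is that of all annotated exons of a gene, so a gene with long, little used exons has a low value on this scale. Mrpl53 also shares 695 of its 790 exon bases with the gene Gm42688 on the same strand. Reads there cannot be assigned to 1 of them with certainty, so the level of Mrpl53 is uncertain.

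**Figure D1:**
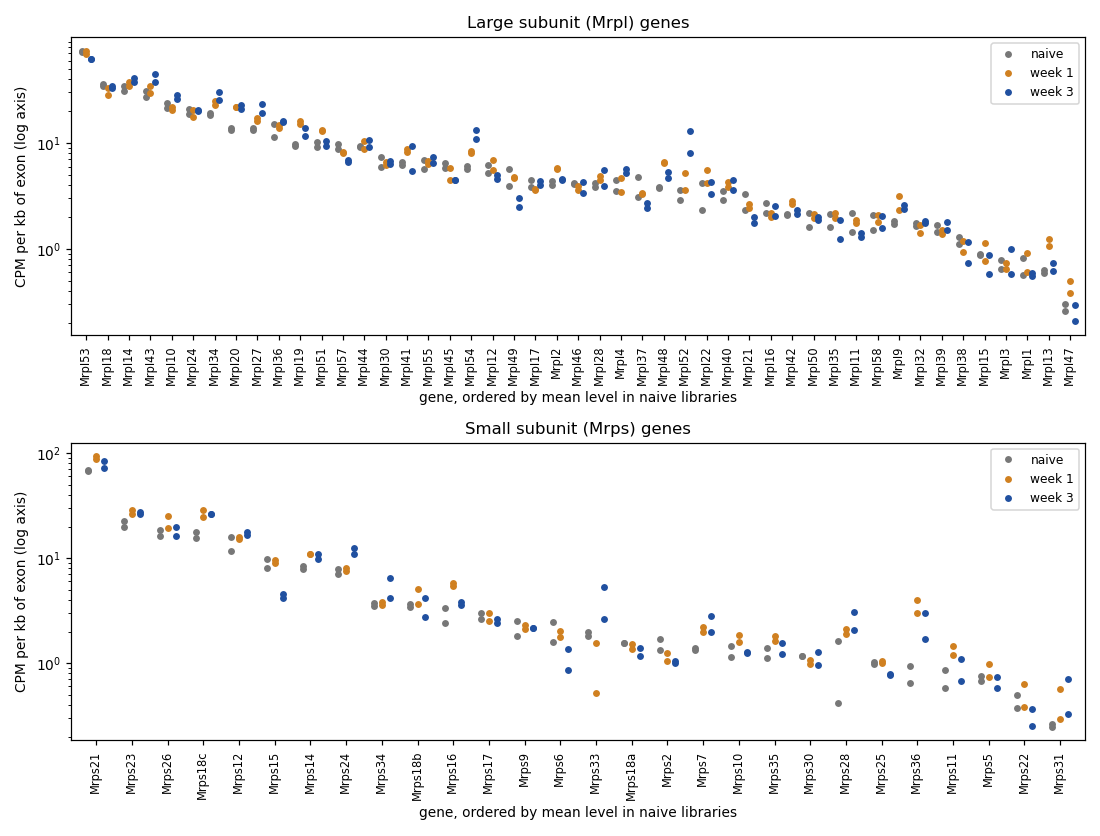
Level of each tested member in every library, as CPM per kb of annotated exon on a log axis, ordered by the mean of the naive libraries (grey: naive, orange: week 1, blue: week 3). Mrpl53 and Mrps21 lead their subunits in the naive libraries, at means of 73.2 and 68.2 CPM per kb, and Mrps33, Mrps28 and Mrps36 show a wide spread at low levels. Mrpl53 shares most of its exon bases with Gm42688.

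Summed over each subunit, RNA of the large subunit came to 725.6 and 755.8 CPM in naive libraries, 834.0 and 836.3 CPM at week 1, and 812.7 and 822.0 CPM at week 3. The small subunit came to 352.3 and 376.7 CPM in naive libraries, 475.1 and 437.9 CPM at week 1, and 419.3 and 402.8 CPM at week 3. On this TMM scale both sums were above the naive libraries in each of the 4 tumor-bearing libraries. Scaled by library totals alone, the large-subunit sum at week 3, 741.7 and 765.0 CPM, overlapped that of naive libraries, 764.5 and 747.2 CPM, while the small-subunit sum, 382.6 and 374.9 CPM, stayed above 371.2 and 372.3 CPM. The share of the small subunit in the summed CPM of both was 32.7% and 33.2% in naive mice, 36.3% and 34.4% at week 1, and 34.0% and 32.9% at week 3. The share at week 3 overlapped that of naive mice.

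The typical member moved little. Taken over the members of a subunit, the median log2 difference from the naive mean was 0.17 and 0.07 in the week 1 libraries and 0.09 and 0.03 in the week 3 libraries for the large subunit. For the small subunit it was 0.29 and 0.16 at week 1 and 0.23 and 0.11 at week 3. Over all genes tested these medians lay between 0.01 and 0.04, so the small-subunit median stood above that of all genes in every tumor-bearing library, and the large-subunit median in 3 of 4. The fitted medians of log2 fold change at week 1 were 0.12 for large and 0.29 for small, beside 0.01 for all genes tested. After a correction for gene length and GC content the large-subunit median at week 1 was -0.03 and the small-subunit median 0.18, beside -0.05 for all genes. At week 3 against naive the fitted medians were 0.08 and 0.17, beside 0.04, and with library totals alone as the scale they were -0.07 and 0.02, beside -0.11. Without naive replicate 1 the small-subunit median at week 3 was 0.006, and without week 1 replicate 1 the large-subunit and small-subunit medians at week 1 were 0.05 and 0.15. Against week 1, the medians at week 3 were -0.08 for large and -0.17 for small, beside -0.02 for all genes. Moving Mrps30 and Mrps18a, which structures place in the large subunit, and leaving out Mrps36 gave medians at week 1 of 0.12 for large and 0.32 for small. No test was made of the subunits against each other, since genes are not replicates.

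**Figure D2:**
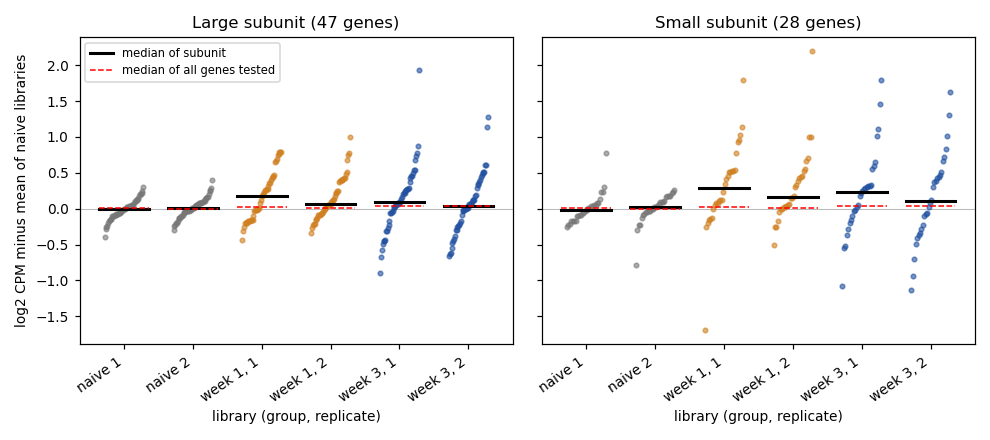
Log2 CPM of each member minus its mean over the naive libraries, for the 47 large-subunit and 28 small-subunit genes in the 6 libraries, with each point a gene, sorted within its library (black bar: median of the subunit, red dashed bar: median of all genes tested). The small-subunit medians of the tumor-bearing libraries, 0.29, 0.16, 0.23 and 0.11, lie above those of the large subunit, 0.17, 0.07, 0.09 and 0.03.

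At week 1, 8 of 75 members (10.7%) were higher than in naive mice by edgeR's quasi-likelihood test at an adjusted p under 0.05, and 0 were lower. Over all genes tested, 7.99% were called, 4.23% higher and 3.76% lower. No member was lower at an unadjusted p under 0.05 or with DESeq2 either, while 16 and 6 were higher. The 8 were 5 of 47 large-subunit genes (Mrpl13, Mrpl19, Mrpl20, Mrpl48 and Mrpl51) and 3 of 28 small-subunit genes (Mrps16, Mrps18c and Mrps36). Both week 1 libraries lay above both naive libraries in 31 of 75 members (41.3%), 17 large and 14 small, beside 27.2% of all genes, and below them in 8 (10.7%), beside 26.1%.

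Among these, Mrpl48, a large-subunit protein added in mitochondria, stood at 30.8 and 31.4 CPM in naive libraries, 52.3 and 53.6 at week 1, and 37.9 and 43.8 at week 3. It rose 1.70-fold at week 1 (log2 fold change 0.77 ± 0.13 SE, adjusted p = 0.00393), and its week 3 libraries lay between the other groups. Some of its exon bases, on the opposite strand, belong to Rab6a, which held 4429 to 5184 counts per library. Rab6a itself had a log2 fold change of -0.11 at week 1 (adjusted p = 0.604).
Mrpl19, of bacterial descent, stood at 51.4 and 53.8 CPM in naive libraries, 83.1 and 88.7 at week 1, and 63.5 and 74.8 at week 3. It rose at week 1 by 0.71 ± 0.13 on the log2 scale (adjusted p = 0.00555), and its groups did not overlap.
Mrpl20, known to bind ribosomal RNA early in the assembly of the bacterial large subunit, had 23.3 and 22 CPM in naive libraries, 36.7 and 36.3 at week 1, and 37.6 and 34.7 at week 3. Its log2 fold change at week 1 was 0.69 ± 0.13 (adjusted p = 0.00786), and its week 3 libraries spanned those of week 1.

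Mrps16, a small-subunit protein of bacterial descent, had 6.96 and 9.66 CPM in naive libraries, 15.8 and 16.6 at week 1, and 10.3 and 11.1 at week 3. It rose 1.94-fold at week 1 (log2 fold change 0.96 ± 0.19, adjusted p = 0.0101).
Mrps18c, one of 3 mammalian relatives of the bacterial protein S18, had 16.8 and 19.2 CPM in naive libraries, 30.9 and 26.5 at week 1, and 28.2 and 28.5 at week 3. Its log2 fold change at week 1 was 0.67 ± 0.15 (adjusted p = 0.0155), and both tumor-bearing groups lay above naive. The other relatives had log2 fold changes of 0.32 (Mrps18b, adjusted p = 0.478) and -0.12 (Mrps18a, adjusted p = 0.827).
Mrpl13 had 4.99 and 4.75 CPM in naive libraries, 8.54 and 9.85 at week 1, and 5.90 and 4.92 at week 3, with a log2 fold change at week 1 of 0.92 ± 0.22 (adjusted p = 0.0257). Mrpl51 had 36.9 and 40.9 CPM in naive libraries, 53.9 and 52.0 at week 1, and 37.8 and 42.5 at week 3, with a log2 fold change at week 1 of 0.44 ± 0.13 (adjusted p = 0.0485). In both, the week 3 libraries overlapped the naive ones. Among members that were not called, the log2 fold changes furthest from 0 were 0.97 for Mrps28 (adjusted p = 0.347), -0.87 for Mrps33 (0.306) and 0.87 for Mrps11 (0.229), all with fewer than 50 counts in each naive and week 1 library.

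The calls at week 1 depended on single libraries, and so did those over all genes tested. Leaving out a naive or week 1 library also lowered the number of calls over all genes, so such losses are not particular to these members. Without naive replicate 1, 0 of the 8 members kept the call, with adjusted p-values between 0.0565 and 0.262 and log2 fold changes of 0.37 to 2.42, beside 0.44 to 2.13 with all libraries. Without naive replicate 2, 5 kept it (Mrpl19, Mrpl20, Mrpl48, Mrps16 and Mrps18c). Without week 1 replicate 1 it was 4 (Mrpl19, Mrpl48, Mrps16 and Mrps36), and without week 1 replicate 2 it was 2 (Mrpl48 and Mrps18c). Without week 3 replicate 2, Mrpl51 lost the call (adjusted p = 0.0504). In each of these settings 1 group had a single library, which was assumed to vary like the others.

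**Figure D3:**
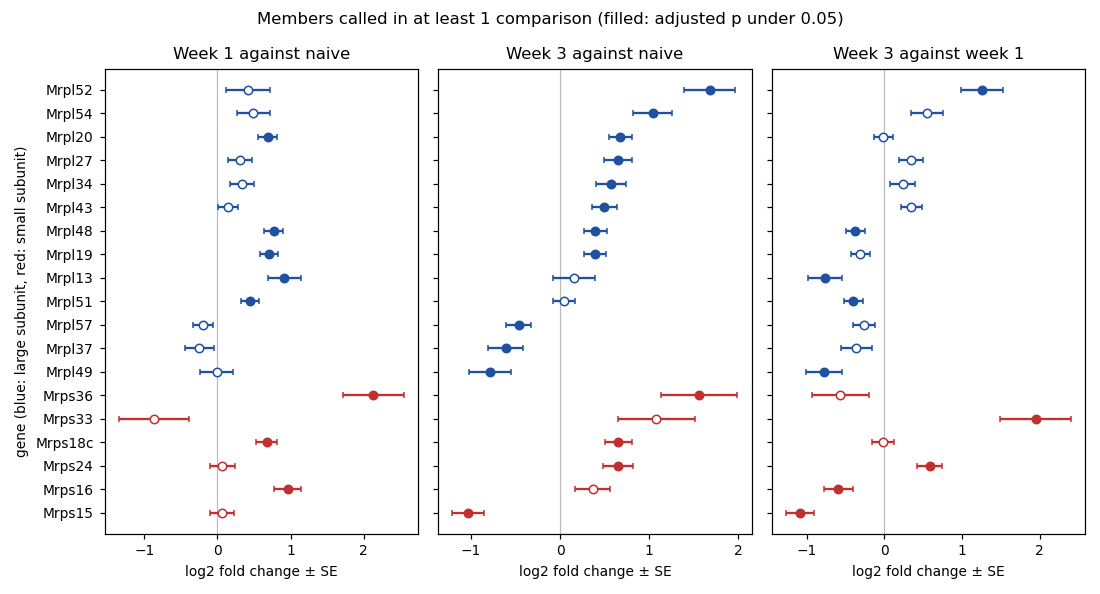
Log2 fold change ± SE of the 19 members called in at least 1 comparison, in the 3 comparisons, with large-subunit genes in blue and small-subunit genes in red (filled: adjusted p under 0.05, open: not called). Mrpl52 and Mrpl54 lie furthest to the right among large-subunit genes at week 3 against naive, at 1.68 and 1.04, and Mrps15 furthest to the left, at -1.03.

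Mrps36 had the largest log2 fold change at week 1, 2.13 ± 0.42 (adjusted p = 0.00919), but on few counts, 15 and 10 in naive libraries, 57 and 68 at week 1, and 49 and 28 at week 3. Its product is known today chiefly as a part of the 2-oxoglutarate dehydrogenase complex, and structures of the mitoribosome do not hold it. The gene lies at chr13:100735955-100744659 on the minus strand (GRCm38). A processed pseudogene, Mrps36-ps1 at chr17:53866715-53867020, matches 304 of the 306 bases of its coding sequence and held 77, 89, 58, 65, 51 and 53 counts in the same order of libraries. The stretch that holds both differences, bases 42 to 161 of the coding sequence, is shown because coding reads outside it cannot tell the gene from its copy by sequence, and the capitals mark the differences A76C and C128T, with the gene's base first and positions counted from 1 at the start codon.
Mrps36: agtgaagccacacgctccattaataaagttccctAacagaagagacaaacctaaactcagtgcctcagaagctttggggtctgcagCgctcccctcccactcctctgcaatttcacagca
Mrps36-ps1: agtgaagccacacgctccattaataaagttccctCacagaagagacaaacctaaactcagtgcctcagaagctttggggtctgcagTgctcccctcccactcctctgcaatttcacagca
When the counts of gene and copies were summed, CPM came to 7.28 and 8.10 in naive libraries, 7.68 and 9.92 at week 1, and 7.76 and 6.23 at week 3, and the groups overlapped. The summed log2 fold changes were 0.19 at week 1 (adjusted p = 0.657) and -0.14 at week 3 (adjusted p = 0.718), so neither call of Mrps36 held. The authors' program divided reads of the 2 loci by estimate, and its part in the difference of Mrps36 was not tested.

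Mrpl23 stood at the other extreme. Its gene, chr7:142532686-142540747 on the plus strand, held 0 counts in 5 libraries and 3 counts in week 3 replicate 1, and was set aside before testing. Its processed pseudogene Mrpl23-ps1, chr2:74591330-74591909, held 274 and 278 counts in naive libraries, 488 and 381 at week 1, and 143 and 222 at week 3. The copy matches all of the 421 aligned bases of the coding sequence, from base 96 to the stop codon. The first 120 of them, the same letter by letter in both, show why no read within this stretch can be assigned.
Mrpl23: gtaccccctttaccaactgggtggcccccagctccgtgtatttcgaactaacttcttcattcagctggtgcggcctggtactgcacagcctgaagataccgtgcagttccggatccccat
Mrpl23-ps1: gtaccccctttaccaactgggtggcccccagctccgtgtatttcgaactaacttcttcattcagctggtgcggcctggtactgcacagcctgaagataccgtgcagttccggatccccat
Summed, the pair came to 21.7 and 22.8 CPM in naive libraries, 32.6 and 28.4 at week 1, and 11.3 and 17.1 at week 3. The summed log2 fold change was 0.46 at week 1 (adjusted p = 0.135), -0.65 at week 3 against naive (adjusted p = 0.0253) and -1.1 at week 3 against week 1 (adjusted p = 0.000819). Which of the loci gave the RNA cannot be told from these counts. Mrps27, the other member set aside, held between 2 and 11 counts per library. Copies of 10 other members, at 95% identity or more over at least 75 bases, held at most 8 counts in any library.

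**Figure D4:**
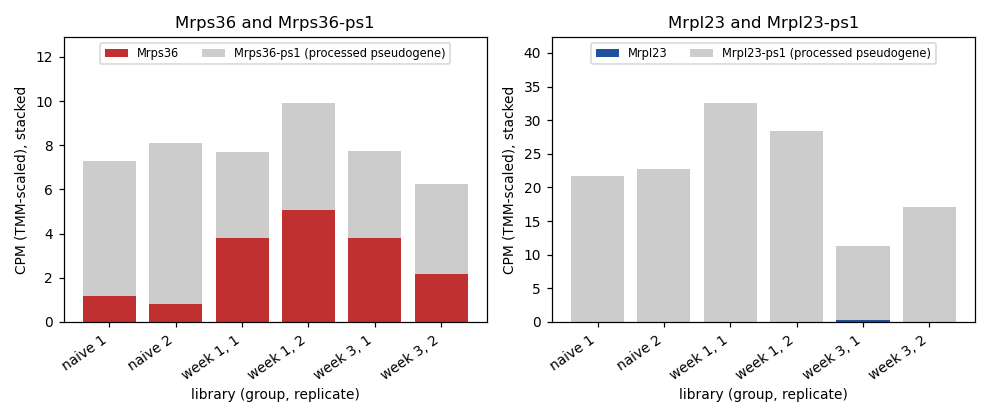
CPM of Mrps36 and Mrpl23 in each library, stacked with the CPM of a processed pseudogene of near-identical coding sequence (grey), with bars starting at 0. The sum for Mrps36 stays between 6.23 and 9.92 CPM while the part assigned to the gene differs between groups, and nearly the whole of the Mrpl23 sum is assigned to the pseudogene.

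At week 3, 15 of 75 members (20.0%) differed from naive mice, 11 higher and 4 lower, beside 21.4% of all genes, 12% higher and 9.42% lower. The share of members called was thus close to that of all genes. By subunit, 8 of 47 large-subunit genes were higher and 3 lower, and 3 of 28 small-subunit genes were higher and 1 lower. Both week 3 libraries lay above both naive libraries in 28 members (37.3%), beside 32.1% of all genes, and below them in 15 (20.0%), beside 27.5%. When libraries were scaled by their totals alone, which moved the median of all genes to -0.11, 6 members were called higher and 6 lower. Over all genes, 890 were then called higher and 1675 lower.

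Mrpl52 and Mrpl54 showed the largest rises of the large subunit at week 3, both of them proteins added in mitochondria. Mrpl52 (chr14:54426909-54429756) had 3.25 and 4.01 CPM in naive libraries, 5.74 and 3.95 at week 1, and 14.3 and 9.0 at week 3. It rose 3.2-fold at week 3 (log2 fold change 1.68 ± 0.29, adjusted p = 0.00106). The 2 week 3 libraries differed from each other but both lay above the other 4.
Mrpl54 (chr10:81264713-81266934) had 4.67 and 4.99 CPM in naive libraries, 6.68 and 6.94 at week 1, and 9.0 and 10.8 at week 3. Its groups did not overlap, and at week 3 it rose 2.05-fold (log2 fold change 1.04 ± 0.22, adjusted p = 0.00414), while at week 1 its log2 fold change of 0.49 ± 0.22 had an adjusted p of 0.196.

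Others of the large subunit changed by less. Mrpl27, which in bacteria lies close to the site of peptide bond formation, had 13.5 and 13.1 CPM in naive libraries, 17.1 and 15.9 at week 1, and 22.8 and 19.1 at week 3, with a log2 fold change at week 3 of 0.65 ± 0.16 (adjusted p = 0.0112). Mrpl34 had 11.7 and 11.1 CPM in naive libraries, 13.8 and 15.1 at week 1, and 18.4 and 15.6 at week 3, a log2 fold change of 0.57 ± 0.17 (adjusted p = 0.0267). Both genes are of bacterial descent and stood in the same order, with no overlap between groups. Mrpl43 had 40.9 and 47.4 CPM in naive libraries, 52.6 and 45.1 at week 1, and 56.9 and 67.5 at week 3, and its log2 fold change was 0.49 ± 0.14 (adjusted p = 0.0235). Mrpl20, described above, stayed higher at week 3, by 0.67 ± 0.13 on the log2 scale (adjusted p = 0.00262). Mrpl19 (0.39, adjusted p = 0.0408) and Mrpl48 (0.39, adjusted p = 0.045) were also higher than in naive mice.

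In the small subunit, Mrps18c rose by 0.65 ± 0.15 on the log2 scale at week 3 (adjusted p = 0.00701). Mrps24, of bacterial descent and placed at the entry of the messenger RNA channel, had 11.6 and 10.4 CPM in naive libraries, 11.8 and 11.1 at week 1, and 16.1 and 18.2 at week 3, and rose 1.56-fold (log2 fold change 0.65 ± 0.17, adjusted p = 0.0154). Its week 1 libraries overlapped the naive ones, and the week 3 libraries lay above both groups. Some of its exon bases belong also to Urgcp on the same strand, which held 59 to 88 counts per library. Mrps36 was called higher (log2 fold change 1.56 ± 0.43, adjusted p = 0.0208), with the limit on its counts given above.

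The 4 members that fell at week 3 were Mrps15, Mrpl49, Mrpl37 and Mrpl57. Mrps15 (chr4:126046925-126055532), a protein of bacterial descent that binds small-subunit RNA, had 16.5 and 13.8 CPM in naive libraries, 16.4 and 15.3 at week 1, and 7.06 and 7.77 at week 3. It was 2.04-fold lower at week 3 (log2 fold change -1.03 ± 0.18, adjusted p = 0.00127), and the naive and week 1 libraries overlapped.
Mrpl49 had 7.36 and 10.6 CPM in naive libraries, 8.81 and 8.95 at week 1, and 4.65 and 5.69 at week 3, a log2 fold change of -0.79 ± 0.24 (adjusted p = 0.0294). Mrpl37 had 21.1 and 13.9 CPM in naive libraries, 15 and 14.6 at week 1, and 12.1 and 10.8 at week 3 (log2 fold change -0.61 ± 0.20, adjusted p = 0.0442). Mrpl57 had 26.0 and 29.1 CPM in naive libraries, 24.4 and 23.7 at week 1, and 20.2 and 19.7 at week 3 (log2 fold change -0.47 ± 0.14, adjusted p = 0.0309). These 3 are large-subunit proteins added in mitochondria. Among members not called at week 3, the log2 fold changes furthest from 0 were 1.31 for Mrps28 (adjusted p = 0.125), 1.08 for Mrps33 (0.0944) and 1.00 for Mrps31 (0.24).

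Of the 15 calls at week 3, those of Mrpl20, Mrpl52, Mrpl54 and Mrps15 were kept under each of the 18 alternative settings, every left-out library included. Without naive replicate 1, 6 of the 15 were kept (these 4, Mrpl49 and Mrpl57), and without naive replicate 2 it was 7 (these 4, Mrpl37, Mrpl43 and Mrps18c). Without either week 3 library 9 were kept, and without either week 1 library 13, the lost ones then being Mrpl19 and Mrpl48. Fewer calls were made over all genes tested, too, when any library was left out. With DESeq2 the numbers were 6 higher and 1 lower.

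**Figure D5:**
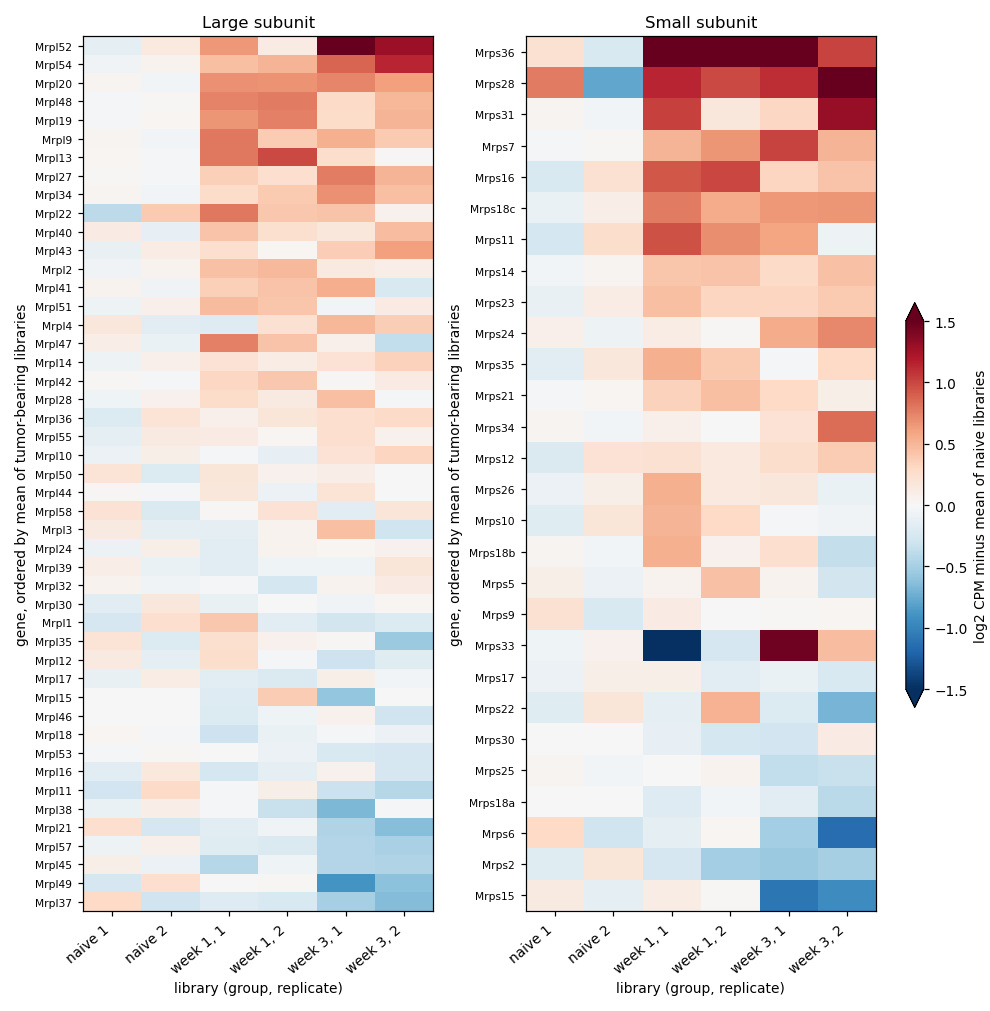
Log2 CPM of the 75 tested members minus the mean of the naive libraries (columns: the 6 libraries, rows: genes, ordered by the mean over tumor-bearing libraries, with the colour scale capped at both ends). Mrps15 and Mrpl49 are lower in both week 3 libraries and close to the naive mean in week 1, Mrpl52 is higher in both week 3 libraries than in the other 4, and Mrps33 is low in week 1 replicate 1 and high in week 3 replicate 1.

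Markers of neutrophils and of other cells moved at week 3 beside these members. Of the 10 neutrophil markers, Cxcr2 (log2 fold change 0.70, adjusted p = 0.00288) and Retnlg (0.43, 0.0135) were higher and the granule genes Camp (-1.03, 0.000173), Ltf (-0.64, 0.00194) and Ngp (-0.51, 0.0116) lower, with sums of 277200 to 315600 CPM in naive, 277400 to 296100 CPM in week 1 and 325600 to 338100 CPM in week 3 libraries. None of the 10 was at 0 counts in any library. The 5 early granulocyte markers in the table (Mpo, Elane, Prtn3, Ctsg and Ms4a3) were all called higher, and their sum was 47.2 to 56.6 CPM in naive, 55.5 to 94.0 CPM in week 1 and 256.5 to 354.4 CPM in week 3 libraries. All of the 10 B-lineage markers were called lower, with sums of 49.0 to 62.2, 48.3 to 61.9 and 12.5 to 14.2 CPM, and Rag1 was at 0 counts in both week 3 libraries. Of 10 markers of cycling cells 7 were called lower, with sums of 655.7 to 678.0, 588.3 to 687.7 and 367.8 to 389.4 CPM. Erythroid markers (1 of 10 called, lower) summed to 577.3 CPM in week 3 replicate 2 and to 1207 to 1515 CPM in the other libraries. Of the 4 of 8 T and NK markers that could be tested 1 was lower, with sums of 14.3 to 17.2, 18.8 to 31.4 and 6.44 to 6.998 CPM. Of 6 tested markers of eosinophils, basophils and mast cells 2 were lower, with sums of 69.8 to 73.6, 79.6 to 89.9 and 52.4 to 70.2 CPM. Of 10 markers of monocytes and macrophages 1 was higher and 1 lower, with sums of 369.2 to 376.9, 307.8 to 339.4 and 294.0 to 427.2 CPM. At week 1, Retnlg (0.58, adjusted p = 0.00813), 3 eosinophil, basophil and mast cell markers and 1 T and NK marker were higher, and of the cycling markers 1 was higher and 1 lower. Of the early granulocyte, B-lineage, monocyte and erythroid markers 0 were called at week 1 by edgeR or DESeq2, with 3, 0, 2 and 0 at an unadjusted p under 0.05. The part of these cells in the members' differences was not tested.

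The direct comparison of week 3 with week 1 called 9 of 75 members (12%), beside 22.5% of all genes, with 3 higher beside 12.9% and 6 lower beside 9.57%. Both week 3 libraries lay above both week 1 libraries in 16 members (21.3%), beside 31.5% of all genes, and below them in 27 (36%), beside 32.3%. Higher at week 3 were Mrpl52 (log2 fold change 1.26 ± 0.27, adjusted p = 0.00514), Mrps24 (0.58 ± 0.17, adjusted p = 0.0228) and Mrps33. Mrps33, a small-subunit protein added in mitochondria, had 38 and 40 counts in naive libraries, 13 and 35 at week 1, and 115 and 57 at week 3, so that the libraries of week 1, and those of week 3, lay apart from each other. Its log2 fold change was 1.95 ± 0.46 (adjusted p = 0.00797), and the call was lost without week 1 replicate 1 or without week 3 replicate 1.

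Lower at week 3 than at week 1 were 4 large-subunit genes, Mrpl13 (-0.76, adjusted p = 0.025), Mrpl48 (-0.38, adjusted p = 0.0474), Mrpl49 (-0.78, adjusted p = 0.029) and Mrpl51 (-0.40, adjusted p = 0.037), and 2 small-subunit genes, Mrps15 (-1.09, adjusted p = 0.000734) and Mrps16 (-0.59, adjusted p = 0.0355). Mrpl13, Mrpl48, Mrpl51 and Mrps16 were among the members higher at week 1 than in naive mice, and the same week 1 libraries enter both comparisons. Members not called here had log2 fold changes of up to -0.80 (Mrpl47, adjusted p = 0.236), -0.78 (Mrps6, 0.176) and -0.71 (Mrps22, 0.299). The call of Mrps15 was kept under each of the 18 alternative settings. Without week 1 replicate 1 only Mrpl52 and Mrps15 of the 9 were kept, and without week 1 replicate 2 only Mrps15 and Mrps33. Without week 3 replicate 1 it was 3 (Mrpl13, Mrps15 and Mrps24), and without week 3 replicate 2 it was 4 (Mrpl49, Mrpl52, Mrps15 and Mrps33). Without naive replicate 2 Mrpl48 lost the call (adjusted p = 0.0651). DESeq2 called 2 higher and 1 lower. Scaled by library totals, with the median of all genes at -0.22, 2 members were higher and 12 lower, beside 856 higher and 2136 lower over all genes. With offsets for length and GC content 7 were higher and 6 lower, beside 1883 higher and 1025 lower over all genes.

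The 2 proteins named for the small subunit but found in the large one did not pass the test. Mrps30 had 7.83 and 7.78 CPM in naive libraries, 7.14 and 6.49 at week 1, and 6.36 and 8.54 at week 3, with log2 fold changes of -0.19 (adjusted p = 0.653) and -0.07 (0.869). Mrps18a had 5.78 and 5.73 CPM in naive libraries, 5.01 and 5.59 at week 1, and 5.12 and 4.31 at week 3, with -0.12 (0.827) and -0.29 (0.457). Of the 5 mitoribosome proteins without an Mrp name, Aurkaip1, of the small subunit, rose at week 1, from 34.0 and 34.4 CPM to 52.5 and 46.5 (log2 fold change 0.54, adjusted p = 0.0253), and stood at 39.4 and 45.1 at week 3. The GTP-binding protein Dap3 had log2 fold changes of 0.24 (adjusted p = 0.41) and 0.44 (0.073), Chchd1 of -0.04 (0.891) and -0.15 (0.484), Ptcd3 of -0.16 (0.731) and -0.42 (0.222), and Gadd45gip1 of 0.12 (0.872) and -0.88 (0.101) at week 1 and week 3. The mitochondrial ribosomal RNA genes and messenger RNAs of the mitochondrial genome were not analysed here, since no identifier matched them.

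The promoters of the members were compared in RefSeq windows (build GRCm38.p6) from 250 bases before to 50 bases after a gene's start, found for 68 of the 77 members. The motif CCGGAAG of ETS factors, to which GABP belongs, was present on either strand in 25 of 68 members (36.8%), 14 of 42 large and 11 of 26 small, and in 9.93% of 27025 genes with a window. GCGCANGCG, of NRF1, was present in 16 members (23.5%), 12 large and 4 small, and in 7.03% of all genes. AAGATGGCG, of YY1, was present in 8 (11.8%), 4 large and 4 small, and in 1.64% of all genes. The 27025 genes include many that were not tested here, so these shares do not compare the members with expressed genes alone. GABP, NRF1 and YY1 are known regulators of nuclear genes for mitochondrial proteins. The 3 motifs do not contain one another, and a match is a description of letters. The 120 bases before the start are given for Mrpl52 and Mrps15, which rose and fell at week 3 under every alternative run, and for Mrpl43 and Mrpl57, called in opposite directions, with matches in capitals.
Mrpl52, chr14:54426789-54426908, plus strand: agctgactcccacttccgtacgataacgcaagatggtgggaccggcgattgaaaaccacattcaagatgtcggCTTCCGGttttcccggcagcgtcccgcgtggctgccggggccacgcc
Mrps15, chr4:126046808-126046927, plus strand: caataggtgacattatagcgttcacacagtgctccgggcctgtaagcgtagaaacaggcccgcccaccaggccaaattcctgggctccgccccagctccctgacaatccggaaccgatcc
Mrpl43, chr19:45006443-45006562, minus strand: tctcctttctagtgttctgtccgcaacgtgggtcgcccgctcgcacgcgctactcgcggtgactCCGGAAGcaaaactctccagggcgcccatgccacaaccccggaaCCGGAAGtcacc
Mrpl57, chr14:57826119-57826238, plus strand: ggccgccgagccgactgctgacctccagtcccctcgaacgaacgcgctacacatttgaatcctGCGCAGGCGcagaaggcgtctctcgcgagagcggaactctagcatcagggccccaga
The stretch of Mrpl52 holds the ETS motif once, on the opposite strand, that of Mrpl43 holds it at 2 places and that of Mrpl57 holds the NRF1 motif once, while none of the 3 motifs is in the stretch shown for Mrps15. The stretches are examples, and matches did not follow the direction of change over the members. Mrpl20, which also rose at week 3 under every alternative, held 0 matches in the 250 bases before its start. Mrpl53, with 2 ETS matches there, and Mrpl18, with 1, were called in no comparison. Among the regulators themselves, Gabpa had 6.65 and 6.22 CPM in naive libraries, 7.34 and 10.1 at week 1, and 11.2 and 10.9 at week 3, and rose at week 3 (log2 fold change 0.78, adjusted p = 0.0187). The other listed GABP gene, Gabpb1, had log2 fold changes of 0.62 at week 1 (adjusted p = 0.0794) and -0.11 at week 3 (0.76). At week 3 against week 1 its log2 fold change was -0.73 (adjusted p = 0.0206). DESeq2 called 0 of the 10 mitochondrial transcription genes tested, Gabpa included, at week 3 against naive. Nrf1 and Yy1 had log2 fold changes at week 3 of -0.20 (adjusted p = 0.371) and 0.21 (0.297).

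Genes that build or use the mitoribosome had calls in both directions, as did all genes tested. Of 26 assembly and RNA modification genes tested, 3 were higher and 0 lower at week 1 (11.5% called, beside 7.99% of all genes). At week 3, 4 were higher and 1 lower (19.2% called, beside 21.4% of all genes). At week 1, 2 of them were lower at an unadjusted p under 0.05 and 0 by DESeq2. Ddx28, an RNA helicase of large-subunit assembly, had 4.67 and 4.09 CPM in naive libraries, 3.27 and 3.21 at week 1, and 26.1 and 15 at week 3, a log2 fold change of 2.22 at week 3 (adjusted p = 7.1e-05). Malsu1, which holds the subunits apart during assembly, rose by 0.98 at week 3 on the log2 scale (adjusted p = 0.00142), and Rbfa, a small-subunit assembly factor, fell by 0.65 (adjusted p = 0.00496). Ybey, an RNA-processing enzyme of the small subunit, rose by 1.1 at week 1 (adjusted p = 0.00402) and by 0.62 at week 3 (adjusted p = 0.0315), Noa1 by 0.76 at week 1 (0.0138) and Rpusd4 by 0.88 at week 1 (0.0485). Of 15 translation factors tested, 3 were higher at week 1, Slirp (0.81, adjusted p = 0.00808), Guf1 (1.16, 0.0116) and Mtif2 (0.46, 0.0466), and 1 lower, Lrpprc, which stabilizes mitochondrial messenger RNA together with Slirp (-1.12, 0.0255). At week 3, Guf1 was higher (0.74, 0.0461) and Lrpprc lower (-1.20, 0.00824). The share of translation factors called was 26.7% at week 1, beside 7.99% of all genes, and 13.3% at week 3, beside 21.4%. Of the 14 mitochondrial aminoacyl-tRNA synthetases tested, 0 were called by edgeR in any comparison, with 1 at an unadjusted p under 0.05 at week 1 and 2 in each comparison of week 3, and DESeq2 called 0.

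Other gene groups with ribosomal or mitochondrial roles gave the scale. Of 85 cytosolic ribosomal protein genes tested, 23 were higher and 1 lower at week 1 (median log2 fold change 0.28), and 51 were higher and 0 lower at week 3 (0.46). The share called was 28.2% at week 1, beside 7.99% of all genes, and 60.0% at week 3, beside 21.4%. For the cytosolic genes at week 3, 0 were lower also at an unadjusted p under 0.05 and with DESeq2. Of 36 tested genes with Nduf names, subunits of complex I except for Ndufa4, which belongs to complex IV, 6 were higher at week 1 (0.31) and 9 at week 3 (0.18), and 0 were lower by edgeR, at an unadjusted p under 0.05 or by DESeq2. Against naive mice, the medians of all 75 mitoribosomal members were 0.14 at week 1 and 0.08 at week 3.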

How the data were processed

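The deposited table held whole-number expected counts per gene, which the authors had made by aligning single-end reads and estimating counts with RSEM. The submitters' processing notes name RSEM 1.2.31, Bowtie2, DESeq2 and the build mm10, and the strand setting of the counting is not given in the sources used here. Identifiers were matched to a GENCODE annotation on GRCm38 (37570 of 38887 matched). Counts of all 6 libraries were fitted with edgeR 4.0.16 (R 4.3.3), with TMM factors, filterByExpr, a quasi-likelihood F test on group and Benjamini-Hochberg adjustment over 12259 genes, and called at an adjusted p under 0.05. A naive or week 1 library thus enters more than 1 comparison. SE is the log2 fold change divided by the root of F. The fit was tested on simulated data.

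Members and lists were chosen with earlier results of these data known. Statistics are given for every member called, the 3 highest and 3 lowest of each subunit per length in naive libraries, the 3 largest uncalled differences of each comparison, the members set aside, Mrps30, Mrps18a and Mrps36, the 5 subunits without an Mrp name, and up to 4 called genes of each other list. Subunits follow the gene names. Bacterial or mitochondrial descent follows the unified ribosomal protein names. Near-identical copies, of at least 95% identity over 75 bases, were found with blastn 2.17.0. Motifs were searched with Python 3.11.15. Replicate numbers marked different mice: deviations of same-numbered libraries correlated at 0.0101, 0.0364 and 0.0379, and were not treated as pairs. Alternatives were DESeq2 1.42.0, other samples, scalings, filters, thresholds, a replicate block, offsets for length and GC, and each library left out. Summing counts with copies was chosen after seeing the data. The markers Azu1, and Mtrfr among the translation factors, were not analysed here.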

Additional observations from a re-analysis of the deposited data

Results flagged for a closer look

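The direct test of week 3 against week 1 asks whether the difference from naive mice changed between these time points, since both share the naive libraries. By edgeR's quasi-likelihood test, 9 members passed it. Their log2 differences, week 3 minus week 1, were 1.95 for Mrps33, 1.26 for Mrpl52 and 0.58 for Mrps24. They were -0.38 for Mrpl48, -0.40 for Mrpl51, -0.59 for Mrps16, -0.76 for Mrpl13, -0.78 for Mrpl49 and -1.09 for Mrps15. Adjusted p-values lay between 0.000734 (Mrps15) and 0.0474 (Mrpl48). With 2 libraries a group, no library could be tested for standing apart from its group.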

How the results depend on the processing

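Of 32 calls of single members in the 3 comparisons, 5 were kept under each of 18 alternatives and DESeq2 lost 16. With 1 library left out, members called numbered 0 to 8 (week 1 against naive), 6 to 13 (week 3 against naive) and 2 to 9 (week 3 against week 1). Large-subunit medians of log2 fold change then ranged from 0.052 to 0.21, 0.029 to 0.13 and -0.11 to -0.02, and small-subunit medians from 0.15 to 0.32, 0.006 to 0.24 and -0.20 to -0.11. At an adjusted p under 0.01, 4, 5 and 3 members were called, beside 274, 1339 and 1481 of the 12259 genes tested. Under 0.1 it was 11, 21 and 14 members, beside 1680, 3486 and 3689 genes. DESeq2 called 7 at week 3 against naive (6 higher, 1 lower) and 3 against week 1 (2 higher, 1 lower). Over all genes DESeq2 called 1965 and 2139 in these comparisons. Library size alone called 14 at week 3 against week 1, beside 2992 over all genes. It gave large-subunit medians of 0.17, -0.072 and -0.28, beside 0.065, -0.112 and -0.225 for all genes. Small-subunit medians at week 3 were then 0.02 against naive and -0.37 against week 1. Offsets for length and GC content gave large-subunit medians of -0.032 at week 1 and 0.005 at week 3 against week 1, and small-subunit medians of 0.18 and -0.11. The medians of all genes were then -0.053 and 0.03. For these settings the cause was not tested. Summed with its copies, Mrps36 at week 3 against naive was -0.14, and this was the 1 call of the 32 that was reversed. In that sum, Mrps36-ps1 held 77 and 89 counts in naive libraries and 51 and 53 at week 3. The replicate block gave 7, 14 and 8 members in place of 8, 15 and 9, though the numbers pair no mice. With it, 959, 2559 and 2709 genes were called over all genes, in place of 979, 2626 and 2759. Depth limits members such as Mrps28 and Mrps31, with 4 to 31 counts a library.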
